A study of Mus musculus with 4 samples.

Results

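Pericytes and vascular smooth muscle cells are the mural cells that wrap blood vessels, and 8 genes often used to mark them were followed across bulk RNA-seq of cultured mouse prostate cells. The genes were Pdgfrb, Notch3, Rgs5, Kcnj8, Abcc9, Cspg4, Mcam and Higd1b, matched by Ensembl gene ID to their symbols, and all 8 were among the 56748 genes of the count table. Of the 8, 7 averaged 1 CPM or more (reads of a gene per 1000000 reads of the library), as did 14365 genes in all, and Higd1b did not. Each of the 7 also exceeded 1 CPM in every library. The series holds 4 libraries, 1 for each condition. They are BuOE with radiation, PBS (phosphate-buffered saline) with radiation, BuOE without radiation, and PBS without radiation. All came from the prostates of male C57BL/6 mice of 8 to 10 weeks, digested with collagenase and grown in medium with serum, and the labels call the cells fibroblasts and name no sort or passage number. The irradiated mice received a pelvic dose of 37.5 Gy over 5 days, each fraction being 7.5 Gy at 1.2 Gy per minute, before the cells were taken. BuOE is part of the chemical name of the manganese porphyrin in the series title, which mimics superoxide dismutase. Its dose, its timing, and whether animals or cultures received it are not given in the sources used here, nor is the number of mice behind a library.

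Pericytes sit in the basement membrane of capillaries, and smooth muscle cells surround larger vessels. Endothelial PDGF-B recruits both through the receptor PDGFRB, and NOTCH3, which binds ligands on the endothelium, supports the maturation of mural cells. None of these genes is fully specific: Pdgfrb is also expressed by fibroblasts, Cspg4 by glial progenitors, and Mcam by endothelial cells. In bulk RNA, fewer cells of a type and less RNA per cell cannot be told apart.

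The deposited counts summed to between 24996835 and 35915448 reads per library. Fibroblast markers were present in every library and summed to between 4142 and 6215 CPM over 10 genes, while 8 epithelial markers summed to between 3253 and 5222 CPM. With 1 library per condition, every ratio below compares 2 libraries, has no replicate check and carries no p-value. Levels are CPM scaled by trimmed mean of M values (TMM), and ratios are log2 ratios of these levels with a prior count of 2. The range after a ratio is its 95% interval from the 2 counts, and it covers counting error only.

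The 7 measured genes fell into distinct patterns across the libraries. Rgs5, Kcnj8, Abcc9 and Mcam had their lowest level in the PBS library and their highest in the BuOE library, with between 3.27-fold and 6.19-fold between these extremes. Notch3 was also highest in the BuOE library but spanned 1.66-fold in all, Cspg4 was highest in the PBS library, and Pdgfrb was highest in the irradiated PBS library. Of all genes that passed 1 CPM, 30.1% had their lowest level in the PBS library and 32.2% their highest there. In the BuOE library 21.9% had their highest level. The share of all genes with both the lowest level in PBS and the highest in BuOE was not counted. That these 4 genes are described together was decided after their values were seen.

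Rgs5 encodes a regulator that shortens signalling by G proteins downstream of vasoactive receptors, and it is among the most used pericyte markers. It stood at 46.8 CPM in the irradiated BuOE library, 46.4 CPM in the irradiated PBS library, 74.9 CPM in the BuOE library and 12.1 CPM in the PBS library. The irradiated libraries were alike and the PBS library stood lowest, on 355 reads against at least 1136 in each other library. Its ratio of irradiated PBS to PBS was 1.94 (1.77 to 2.11), and that of BuOE to PBS was 2.62 (2.47 to 2.80), the highest ratio of any of the 7 genes in any comparison. Both ratios share the PBS library.

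Kcnj8 encodes the pore and Abcc9 the sulfonylurea receptor subunit of the vascular ATP-sensitive potassium channel, which relaxes mural cells when it opens. Kcnj8 stood at 7.0 CPM in the irradiated BuOE library, 10.8 CPM in the irradiated PBS library, 12.3 CPM in the BuOE library and 3.03 CPM in the PBS library. Abcc9 stood at 27.9, 26.4, 37.1 and 11.3 CPM in the same order. The channel genes were thus lowest in the PBS library and highest in the BuOE library, and they differed in the irradiated BuOE library, where Kcnj8 lay below and Abcc9 level with the irradiated PBS library. They are neighbours on mouse chromosome 6 in the RefSeq annotation. Ldhb, the protein-coding gene on the other side of Kcnj8, had a ratio of BuOE to PBS of 0.88, and Cmas, the one on the other side of Abcc9, a ratio of 0.09, against 2.00 for Kcnj8 and 1.70 for Abcc9. Per kilobase of exon, Kcnj8 was at 82.3% of Abcc9 in the irradiated BuOE library (69.1 to 97.5), 135% in the irradiated PBS library (119 to 152), 109% in the BuOE library (96.9 to 123) and 87.8% in the PBS library (68.7 to 111). The intervals of the irradiated libraries did not overlap each other, and those of the unirradiated libraries did. The alternative subunits of such channels, Kcnj11 and Abcc8, did not reach a mean of 1 CPM, and their highest levels were 1.81 and 1.32 CPM, both in the BuOE library.

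Mcam encodes an adhesion molecule of the immunoglobulin superfamily on pericytes, smooth muscle and endothelium. It stood at 168 CPM in the irradiated BuOE library, 137 CPM in the irradiated PBS library, 185 CPM in the BuOE library and 40.6 CPM in the PBS library. The PBS library was again apart from the rest, and the irradiated BuOE library lay closer to the BuOE library than for the other 3 genes of this pattern.

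**Figure D1:**
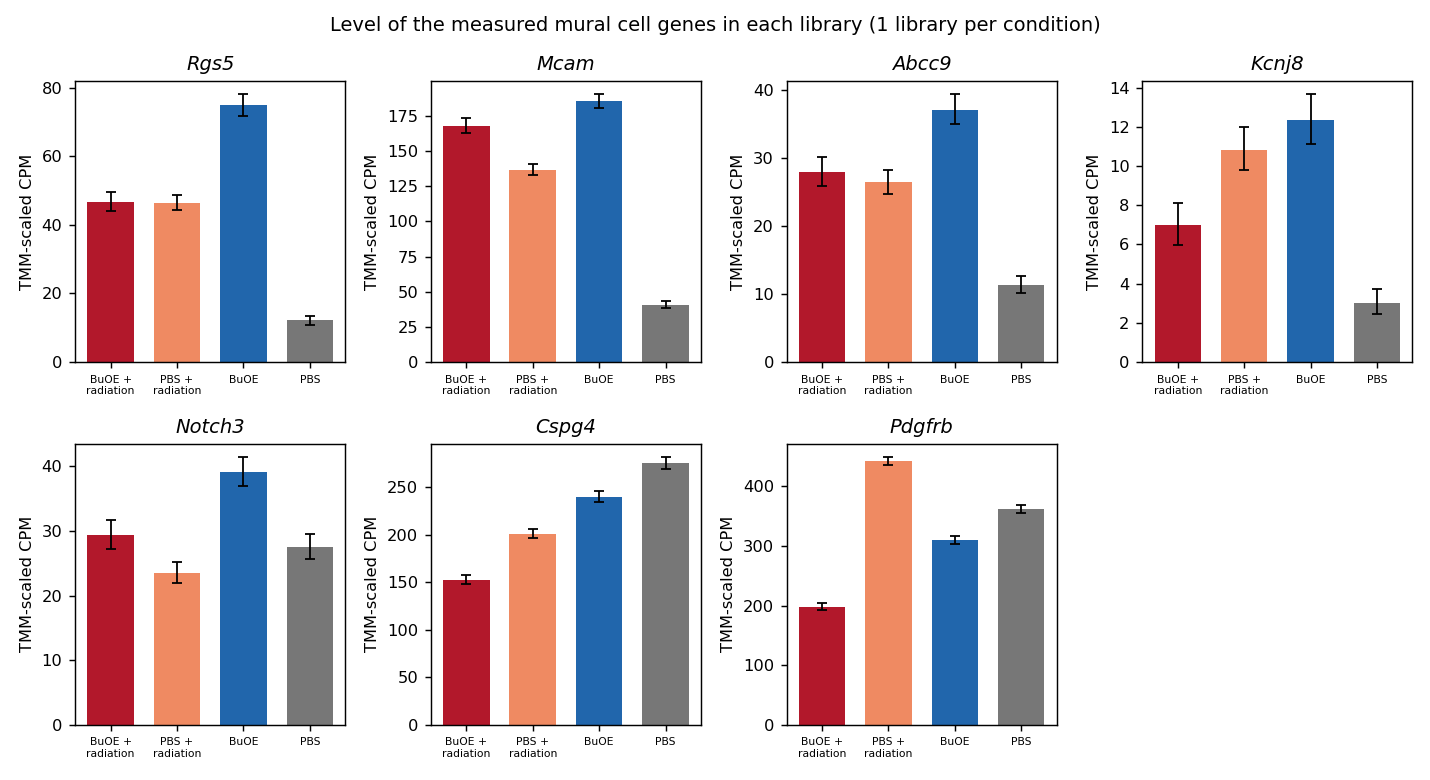
TMM-scaled CPM (vertical axis, linear from 0, own scale per panel) of the 7 measured genes in the 4 libraries, with bars for the level and whiskers for the exact 95% Poisson interval of the count. Rgs5, Mcam, Abcc9 and Kcnj8 are lowest in the PBS library, whereas Cspg4 is highest there at 275 CPM and Pdgfrb peaks in the irradiated PBS library at 442 CPM.

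The windows around the transcription start of these 4 genes are shown because the genes shared a pattern across the libraries. RefSeq promoter windows of 250 bases before to 50 after the start were held for 6 of the 8 genes (build GRCm38.p6, whereas the counts use GRCm39, so the positions belong to GRCm38.p6 only). The Rgs5 window is chr1:169655251-169655550 on the plus strand, that of Kcnj8 chr6:142571565-142571864 on the minus strand, that of Abcc9 chr6:142702225-142702524 on the minus strand and that of Mcam chr9:44134408-44134707 on the plus strand. Each is written 5′ to 3′ along the gene, and capitals mark matches on either strand to the motifs searched.
Rgs5: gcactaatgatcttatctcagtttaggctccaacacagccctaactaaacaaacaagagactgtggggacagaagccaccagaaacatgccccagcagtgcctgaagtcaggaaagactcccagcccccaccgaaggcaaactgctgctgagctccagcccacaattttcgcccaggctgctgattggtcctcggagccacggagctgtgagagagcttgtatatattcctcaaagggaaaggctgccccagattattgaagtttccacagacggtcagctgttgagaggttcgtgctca
Kcnj8: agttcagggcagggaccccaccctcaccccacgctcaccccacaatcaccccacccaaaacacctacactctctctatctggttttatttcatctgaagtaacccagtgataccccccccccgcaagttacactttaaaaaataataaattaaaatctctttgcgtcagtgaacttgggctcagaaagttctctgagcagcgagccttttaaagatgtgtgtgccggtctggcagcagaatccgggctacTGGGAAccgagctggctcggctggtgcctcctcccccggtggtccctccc
Abcc9: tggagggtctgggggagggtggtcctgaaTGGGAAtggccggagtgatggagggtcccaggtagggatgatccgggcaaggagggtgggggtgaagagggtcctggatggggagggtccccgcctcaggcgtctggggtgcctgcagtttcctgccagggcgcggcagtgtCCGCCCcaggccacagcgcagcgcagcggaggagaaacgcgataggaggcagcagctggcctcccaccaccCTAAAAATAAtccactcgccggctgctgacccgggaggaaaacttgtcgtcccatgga
Mcam: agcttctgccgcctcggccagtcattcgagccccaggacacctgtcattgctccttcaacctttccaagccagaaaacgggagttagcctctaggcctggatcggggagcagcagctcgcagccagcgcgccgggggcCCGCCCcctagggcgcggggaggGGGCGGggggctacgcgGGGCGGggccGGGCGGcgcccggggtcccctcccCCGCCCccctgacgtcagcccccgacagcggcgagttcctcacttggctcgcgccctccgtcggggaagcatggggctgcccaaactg
The motifs were the CArG box bound by serum response factor, the MEF2 site, TGGGAA (the core bound by RBPJ, the DNA-binding partner of Notch), GGGCGG (the GC box) and TATAAA. The Rgs5 window held none of the 5. Kcnj8 held TGGGAA at position 251 of the window, and Abcc9 held it at position 30 along with a GC box and a MEF2 site that starts at position 243 and reads as a match on both strands. Mcam held 5 GC boxes, and its window was 72.7% G and C, against 52.3% for Rgs5, 53.3% for Kcnj8, 65.7% for Abcc9 and a median of 52.7% over 32851 windows. Among all windows of this length, 1.63% held a CArG box, 3.19% a MEF2 site, 25.6% TGGGAA, 35.7% GGGCGG and 13.6% TATAAA. No motif was in all 4 windows. The windows of Cspg4 and Notch3, which had other patterns, held 2 and 4 GC boxes and no other match.

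Pdgfrb was among the most abundant genes of the set and moved differently. It stood at 198 CPM in the irradiated BuOE library, 442 CPM in the irradiated PBS library, 310 CPM in the BuOE library and 362 CPM in the PBS library. The irradiated libraries were its lowest and its highest. Its ratio of irradiated BuOE to irradiated PBS was -1.16 (-1.21 to -1.11), the only ratio of the 7 genes that was at least 2-fold lower in any comparison. The collagen genes Col1a1 and Col1a2, the most abundant of the 10 fibroblast markers, had ratios of -1.50 and -1.18 between the same libraries. Dcn (0.41) and Pdgfra (0.23), the next most abundant, were above 0. Of the 10, 8 were below 0, against 56.2% of all genes. The part of fibroblast transcripts in the Pdgfrb ratio was not tested.

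Notch3 stood at 29.4 CPM in the irradiated BuOE library, 23.6 CPM in the irradiated PBS library, 39.2 CPM in the BuOE library and 27.6 CPM in the PBS library. No ratio of Notch3 reached 2-fold. Cspg4, which encodes a chondroitin sulfate proteoglycan of the pericyte surface, stood at 152, 201, 240 and 275 CPM in the same order. It was lower in each irradiated library than in its unirradiated counterpart and lower in each BuOE library than in its PBS counterpart, by less than 2-fold throughout. Higd1b, which encodes a small protein of the hypoxia-inducible domain family and marks pericytes in several mouse organs, had 1 read in the irradiated BuOE library, 1 in the irradiated PBS library, 0 in the BuOE library and 1 in the PBS library. These lie under the floor of 3 reads, which equals 0.123, 0.0842, 0.0990 and 0.102 CPM in the same order, so it was not detectable at this depth and no ratio is given.

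Set on one scale per exon length, Pdgfrb, Mcam and Cspg4 were the 3 highest of the 7 genes in every library. Per kilobase, Pdgfrb stood at 36.2 CPM in the irradiated BuOE library, 80.8 CPM in the irradiated PBS library, 56.6 CPM in the BuOE library and 66.1 CPM in the PBS library. Mcam stood at 50.2, 40.9, 55.4 and 12.1 CPM per kilobase in the same order. Mcam was thus above Pdgfrb in the irradiated BuOE library, level with it within counting error in the BuOE library, and below both Pdgfrb and Cspg4 in the PBS library. Relative to Pdgfrb, Rgs5 was at 28.4% in the irradiated BuOE library (26.6 to 30.3), 12.6% in the irradiated PBS library (12.0 to 13.3), 29.1% in the BuOE library (27.8 to 30.5) and 4.02% in the PBS library (3.61 to 4.47). The ratio of Rgs5 to Pdgfrb was alike in both BuOE libraries, and lower in both PBS libraries. Cspg4 relative to Pdgfrb was at 35.3%, 20.8%, 35.5% and 34.9% in the same order, so that only the irradiated PBS library stood apart. Below these, Rgs5 came next in every library but PBS, where Notch3, at 3.41 CPM per kilobase, lay above Rgs5, at 2.66. Kcnj8, Abcc9 and Notch3 lay between 2.75 and 4.84 CPM per kilobase in the 3 other libraries. Neighbours in their order had overlapping counting intervals there, except that Kcnj8 lay above Abcc9 in the irradiated PBS library.

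**Figure D2:**
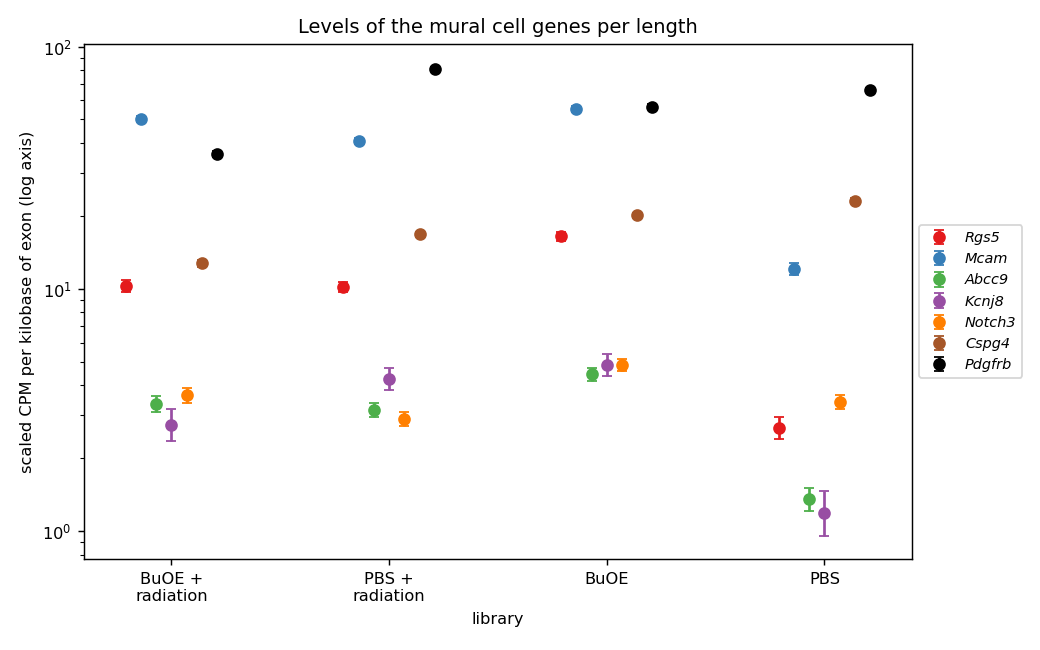
TMM-scaled CPM per kilobase of exon (vertical axis, log scale) of the 7 measured genes in the 4 libraries, with points for levels and whiskers for exact 95% Poisson intervals, offset sideways for legibility. Pdgfrb leads in the PBS library at 66.1, while Mcam leads in the irradiated BuOE library at 50.2.

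The first comparison sets the irradiated library of the PBS arm against the unirradiated one, with 1 library on each side. In the irradiated PBS library against the PBS library, Rgs5, Kcnj8 (1.82, 1.50 to 2.19), Mcam (1.75, 1.66 to 1.85) and Abcc9 (1.21, 1.04 to 1.40) were at least 2-fold higher. These were 4 of 7 genes, against 5.62% of all genes, and none of the 7 was 2-fold lower, against 1.02% of all genes. Pdgfrb was higher by less (0.29, 0.25 to 0.32), and Cspg4 (-0.46, -0.50 to -0.41) and Notch3 (-0.23, -0.37 to -0.09) were lower. The median ratio of the 7 was 1.21, against 0.00 over all genes.

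With BuOE, the irradiated library was lower than the unirradiated one for all 7 genes, none of them by 2-fold. Over all genes, 2.27% passed 2-fold upward and 4.94% downward in this comparison. The lowest ratio was that of Kcnj8 (-0.81, -1.09 to -0.55), followed by Rgs5 (-0.68, -0.78 to -0.58), Cspg4 (-0.65, -0.71 to -0.60) and Pdgfrb (-0.65, -0.70 to -0.60). Notch3 (-0.41, -0.55 to -0.28) and Abcc9 (-0.41, -0.55 to -0.27) were nearer 0, and Mcam was nearest (-0.14, -0.20 to -0.08), at -0.02 with upper-quartile scaling. The median of the 7 was -0.65, against -0.03 over all genes, of which 53.8% had a ratio below 0.

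The radiation ratios of the PBS and BuOE arms, which come from separate library pairs, had opposite signs beyond counting error for 5 of the 7 genes, above 0 in the PBS arm and below 0 in the BuOE arm. Of all genes, 9.26% had this combination. With upper-quartile factors the BuOE arm interval of Mcam includes 0, which leaves 4 of the 7 genes, against 6.59% of all genes. The ratio in the PBS arm minus that in the BuOE arm was 2.63 for Kcnj8, with a counting standard error of 0.22, and 2.61 for Rgs5 (0.10). It was 1.89 for Mcam (0.06), 1.62 for Abcc9 (0.12) and 0.93 for Pdgfrb (0.03). For Cspg4 it was 0.20 (0.04) and for Notch3 0.19 (0.10), since both were lower after radiation in each arm. The 4 libraries leave nothing to test this difference with. It draws on the same libraries as the ratios of BuOE to PBS below, so it is not independent of them.

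Without radiation, the BuOE library was compared with the PBS library. The same 4 genes were at least 2-fold higher, namely Rgs5, Mcam (2.19, 2.10 to 2.28), Kcnj8 (2.00, 1.69 to 2.38) and Abcc9 (1.70, 1.53 to 1.89), against 8.72% of all genes. None was 2-fold lower, against 4.23% of all genes. Since this comparison shares the PBS library with that of radiation in the PBS arm, the 2 sets of ratios are not independent. Notch3 was higher by 0.51 (0.38 to 0.64), whereas Pdgfrb (-0.22, -0.27 to -0.18) and Cspg4 (-0.20, -0.25 to -0.15) were slightly lower. The median of the 7 was 1.70, against -0.01 over all genes.

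Between the irradiated BuOE and irradiated PBS libraries, 4 of the 7 genes had a ratio above 0, against 43.8% of all genes. Rgs5 (0.01, -0.10 to 0.12) and Abcc9 (0.08, -0.06 to 0.23) had intervals that include 0, and the sign of the Rgs5 ratio changed with the scaling. Notch3 (0.32, 0.17 to 0.47) and Mcam (0.30, 0.24 to 0.36) were higher, and Cspg4 (-0.40, -0.46 to -0.34) and Kcnj8 (-0.63, -0.90 to -0.37) lower. Pdgfrb was the 1 gene of 7 at least 2-fold lower, against 5.92% of all genes, and none was 2-fold higher, against 3.81%. The median of the 7 was 0.01, against -0.07 over all genes.

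**Figure D3:**
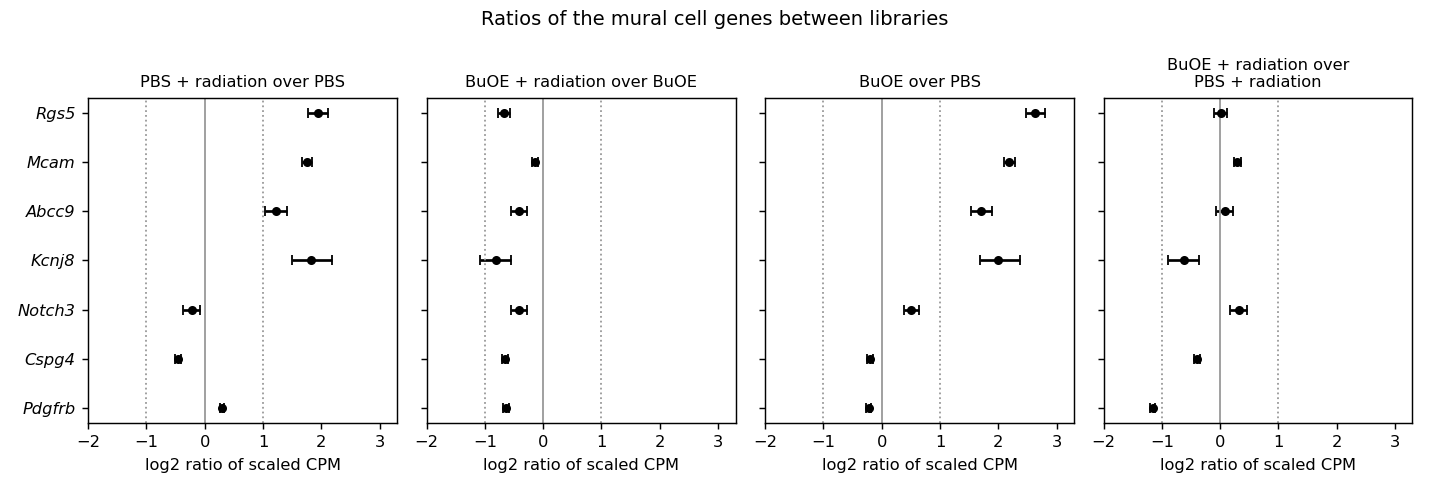
Log2 ratios of scaled CPM (horizontal axis) for the 7 measured genes in the 4 comparisons, with whiskers for the 95% interval from counting error and dotted lines at 2-fold. Rgs5, Mcam, Abcc9 and Kcnj8 lie beyond 1 in both comparisons with the PBS library, at 1.94 and 2.62 for Rgs5, and all 7 genes lie below 0 in the BuOE arm.

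Radiation and BuOE were also fitted as additive terms over the 4 libraries with the quasi-likelihood test of edgeR. A single residual degree of freedom remains, and the fit takes the difference between the arms as error. None of the 7 genes passed an adjusted p of 0.05 for radiation (adjusted p between 0.66 and 0.87) or for BuOE (between 0.23 and 0.65), and neither did any of all genes (0%). At an unadjusted p under 0.05 there was 1 gene of the 7 for each term, Cspg4 for radiation (log2 fold change -0.56, adjusted p 0.66) and Notch3 for BuOE (0.41, adjusted p 0.23). These are the genes whose ratios were most alike in both arms. The share of all genes at an unadjusted p under 0.05 was not counted, here or for the tools below. DESeq2 and limma-voom also called none of the 7, while DESeq2 called 0.78% of all genes for radiation and 6.82% for BuOE. At an unadjusted p under 0.05, limma-voom had 1 of the 7 for each term, again Cspg4 for radiation and Notch3 for BuOE. DESeq2 had 1 for radiation, Cspg4, and 2 for BuOE, which were Abcc9 and Pdgfrb and not Notch3.

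A further 23 genes reported in pericytes were taken as a wider list, of which 20 passed 1 CPM. In the irradiated PBS library 5 of the 20 passed 2-fold upward and 1 downward relative to the PBS library, with a median ratio of 0.62. Over all genes, 5.62% passed upward and 1.02% downward. In the irradiated BuOE library 2 were 2-fold higher and 5 lower than in the BuOE library (median -0.04), against 2.27% and 4.94% of all genes. BuOE against PBS gave 9 higher and 3 lower (median 0.73), beside 8.72% and 4.23% of all genes. Irradiated BuOE against irradiated PBS gave 2 higher and 4 lower (median 0.01), beside 3.81% and 5.92% of all genes. The genes did not move as a block. Gucy1a1, a subunit of the nitric oxide receptor, was highest in the BuOE library, at 7.57 CPM in the irradiated BuOE library, 9.15 CPM in the irradiated PBS library, 16.9 CPM in the BuOE library and 1.91 CPM in the PBS library, the order seen for Kcnj8. Cox4i2, a respiratory chain subunit isoform, was instead highest in the irradiated BuOE library, at 11.6, 3.28, 3.69 and 0.409 CPM in the same order. Tbx18, a transcription factor of mural cells, ran the other way, at 3.95, 9.29, 3.20 and 12.7 CPM. The most abundant of the list were Anpep, a surface peptidase also found on other cells, with 111 CPM in each BuOE library, 81.6 CPM in the irradiated PBS library and 181 CPM in the PBS library, and Des, an intermediate filament of muscle, at 145, 59.0, 85.6 and 38.2 CPM.

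Among 12 smooth muscle genes, 11 of which passed 1 CPM, the contractile markers split. Myh11, the smooth muscle myosin heavy chain, stood at 116 CPM in the irradiated BuOE library, 43.4 CPM in the irradiated PBS library, 99.4 CPM in the BuOE library and 24.4 CPM in the PBS library. Acta2, the smooth muscle actin also made by activated fibroblasts, stood at 298, 845, 308 and 782 CPM in the same order, and so was low in both BuOE libraries where Myh11 was high. Of the 11 genes, 5 were 2-fold or more higher and 3 lower in BuOE against PBS, beside 8.72% and 4.23% of all genes. Irradiated BuOE against irradiated PBS gave 2 higher and 2 lower, beside 3.81% and 5.92% of all genes. The irradiated library had 3 higher and none lower in the PBS arm, against 5.62% and 1.02% of all genes. In the BuOE arm it had 1 higher (Synpo2, 1.08) and none lower, against 2.27% and 4.94% of all genes.

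The partners of the receptors were measured too. Of the 5 genes for PDGF ligands and the related receptor Pdgfra, none reached 2-fold in any comparison. Pdgfb, the ligand of PDGFRB made by endothelium, stood at 78.1 CPM in the irradiated BuOE library, 73.0 CPM in the irradiated PBS library, 125 CPM in the BuOE library and 67.6 CPM in the PBS library, and so was highest in the BuOE library. Of 13 other Notch pathway genes, 6 were at least 2-fold higher in BuOE against PBS, beside 8.72% of all genes. In irradiated PBS against PBS, 2 were, beside 5.62% of all genes. None was 2-fold lower in either comparison, beside 4.23% and 1.02% of all genes. The ligand gene Dll4 stood at 64.3, 52.3, 46.6 and 13.3 CPM, lowest in the PBS library like Rgs5. Heyl, a transcriptional target of NOTCH3 that the wider pericyte list also holds, stood at 7.49 CPM in the irradiated BuOE library, 24.0 CPM in the irradiated PBS library, 43.8 CPM in the BuOE library and 36.4 CPM in the PBS library. Its ratio of irradiated BuOE to BuOE was -2.54 (-2.78 to -2.32), the lowest of the Notch list, beside -0.41 for Notch3 itself. Among the other regulators of G protein signalling in the family of Rgs5, Rgs4, its neighbour on chromosome 1, stood at 9.14, 18.6, 40.7 and 9.43 CPM in the same order. Rgs4 shared the high level of Rgs5 in the BuOE library, but in the irradiated BuOE library it was as low as in the PBS library. Rgs16, the most abundant of them, was highest in the irradiated BuOE library at 190 CPM, against 93.4, 75.6 and 81.6 CPM in the others.

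Markers of other cell types also differed between the libraries. The 10 Schwann cell markers summed to 279 CPM in the irradiated BuOE library, 313 CPM in the irradiated PBS library, 513 CPM in the BuOE library and 142 CPM in the PBS library, the same order of libraries as Kcnj8. All 10 had a ratio above 0 both in irradiated PBS against PBS and in BuOE against PBS, as had 50.4% and 48.8% of all genes. In irradiated BuOE against BuOE 9 of 10 were below 0, beside 53.8% of all genes. The 12 endothelial markers summed to 1000, 1060, 852 and 550 CPM, with all 12 above 0 in both comparisons with the PBS library. In irradiated BuOE against BuOE 7 of 12 were above 0, beside 46.2% of all genes. The 8 neuronal markers summed to 85.0, 211, 567 and 116 CPM. Of these, 7 were at least 2-fold higher in irradiated PBS against PBS, as were 5.62% of all genes. All 8 were at least 2-fold lower in irradiated BuOE against BuOE, as were 4.94% of all genes. The 8 adipocyte markers summed to 226, 196, 178 and 603 CPM, highest in the PBS library. All 8 adipocyte genes were below 0 in both comparisons with it, beside 49.6% of all genes for irradiated PBS and 51.2% for BuOE. No endothelial marker was at or near 0 (the lowest level was 3.61 CPM, for Cldn5 in the PBS library). Macrophage markers summed to between 322 and 492 CPM. The part of these cell types in the levels of the mural cell genes was not tested.

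**Figure D4:**
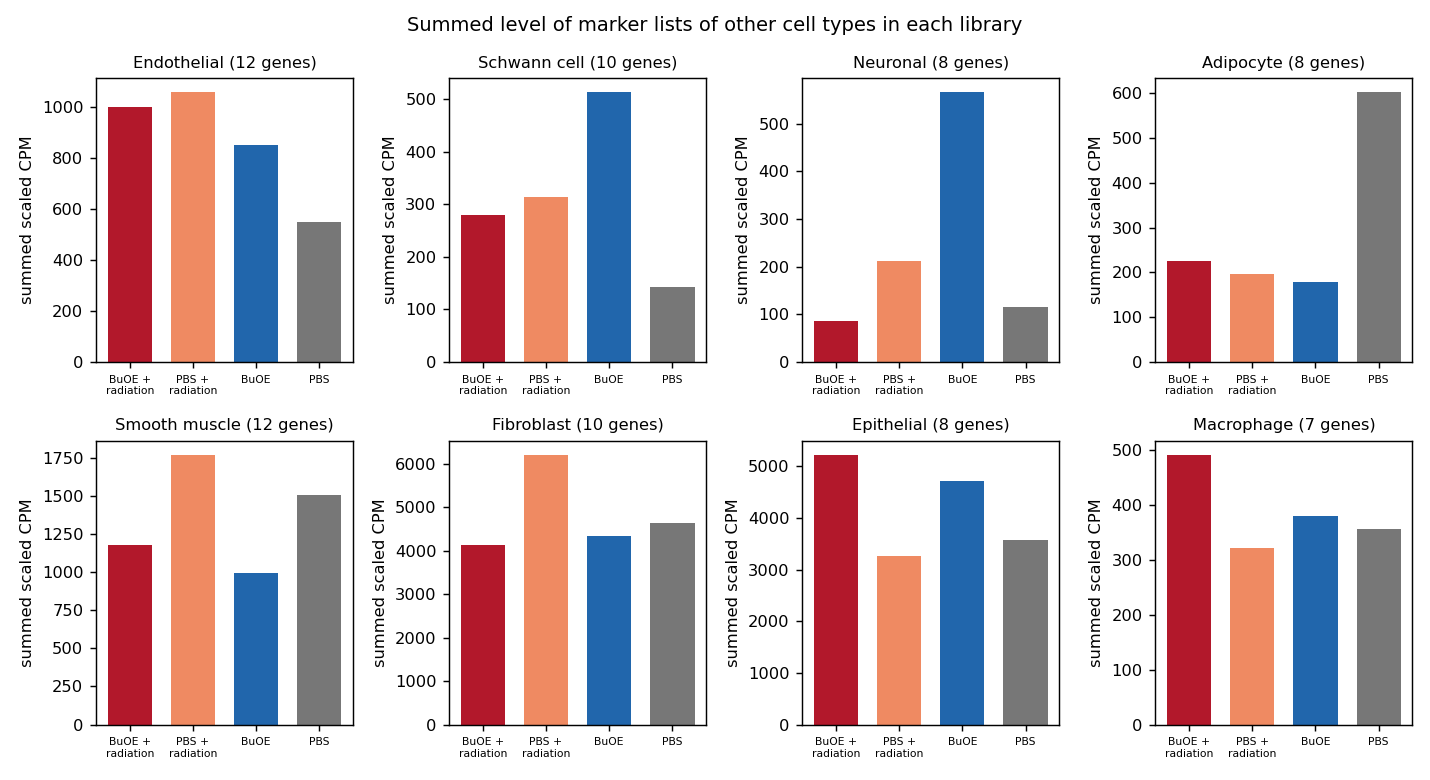
Summed TMM-scaled CPM (vertical axes, linear from 0, own scale per panel) of 8 marker lists in the 4 libraries, 1 bar per library without a replicate error. Endothelial and Schwann cell sums are lowest in the PBS library, at 550 and 142 CPM, where the adipocyte sum is highest at 603 CPM.

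The protein-coding genes with the profile most like the median of the 7 over the 4 libraries, each profile centred on its mean log2 level, were Abca1, C1qtnf1, Egflam, Dnm3 and Cxcr4, among 9474 candidates with a mean of at least 10 CPM. Their Euclidean distances to that median lay between 0.23 and 0.30, against 0.25 for Abcc9, the nearest of the 7, and 1.61 for Cspg4, the farthest. Abca1, a cholesterol exporter and the nearest gene, stood at 223 CPM in the irradiated BuOE library, 223 CPM in the irradiated PBS library, 303 CPM in the BuOE library and 107 CPM in the PBS library. Egflam, which encodes the matrix protein pikachurin, stood at 18.3, 20.3, 26.8 and 10.1 CPM in the same order. Likeness over 4 libraries describes these libraries only.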

How the data were processed

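Bulk RNA-seq of 4 libraries was deposited by the authors as 1 table of raw counts of reads per gene. Per the submitters' processing notes, featureCounts made the counts and the build was GRCm39; Trim Galore, Salmon and edgeR are named there without a role. How strand was treated is not given there. In GENCODE M21, exons of Abcc9, Notch3 and Mcam overlap an antisense gene by 158, 488 and 17 bases, and the overlapping genes held at most 59 reads in a library.

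Symbols were joined by Ensembl ID, and 4675 of 56748 IDs had none. Exon lengths (union of exons) came from GENCODE M21. TMM scaling and the quasi-likelihood test used edgeR 4.0.16, with DESeq2 1.42.0 and limma 3.58.1 as alternatives, on genes that averaged 1 CPM or more, the calls being an adjusted p of 0.05 or a fold of 2. Intervals are exact binomial for ratios and exact Poisson for levels. The radiation ratio of the PBS arm and the additive radiation term were tried on simulated counts. In these, radiation changed genes alike in both arms, so they do not bear on a difference between the arms. Genes named from other lists are the 2 most abundant and those with an extreme ratio, the channel partners in full, and the 5 of like pattern; chromosome neighbours were added later. The genes and lists were chosen with earlier results of these data known.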

Additional observations from a re-analysis of the deposited data

Results flagged for a closer look

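For 5 of the 7 measured genes the radiation ratio was above 0 in the PBS arm and below 0 in the BuOE arm, each beyond counting error, against 9.26% of all genes. With upper-quartile factors, chosen for this count after seeing the data, the BuOE arm interval of Mcam includes 0. The count is then 4, against 6.59% of all genes. The difference of the log2 ratios, PBS arm minus BuOE arm, was 2.63 for Kcnj8, 2.61 for Rgs5, 1.89 for Mcam, 1.62 for Abcc9 and 0.93 for Pdgfrb. With 1 library per condition this difference was not tested. It draws on the same libraries as the ratios of BuOE to PBS and is not independent of them.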

How the results depend on the processing

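The counts of the 7 genes at least 2-fold higher or lower were the same in each comparison with DESeq2 size factors, library size alone, upper-quartile factors, a prior count of 0.5 or no filter. With a mean of 10 CPM or more, 3 genes in place of 4 were 2-fold higher in both comparisons with the PBS library, because Kcnj8 was left out. The ratios moved by at most 0.14, with upper-quartile factors, and the only sign that changed was that of Rgs5 in irradiated BuOE against irradiated PBS (-0.02 to 0.15). Of 35 values, counting ratios and differences between arms, 9 moved beyond counting error with library size alone and 11 with upper-quartile factors. For example, upper-quartile factors gave Pdgfrb a ratio of -1.02 in irradiated BuOE against irradiated PBS, outside its interval. Upper-quartile factors moved the median ratio of all genes in that comparison from -0.07 to 0.06 and in irradiated BuOE against BuOE from -0.03 to 0.08; library size alone moved the second to -0.14. The count of the 7 genes above 0 in the PBS arm and below 0 in the BuOE arm was 5 with DESeq2 size factors, against 8.25% of all genes. It was 5 with library size alone, against 12.3%, and 4 with upper-quartile factors, against 6.59%. These settings were added for this count after seeing the data. In the additive model, every tool called 0 of the 7 genes. Over all genes, edgeR called 0 for either term, whereas DESeq2 called 112 for radiation and 866 for BuOE, and edgeR on genes with at least 10 CPM called 335 for BuOE. No paired analysis was possible because each condition has 1 library and the shared number 1 pairs nothing. Depth limits Higd1b, which had at most 1 read, and no library could be left out of a comparison of 2.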
